A study of Mus musculus with 4 samples.

Results

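Aminoacyl-tRNA synthetases are the enzymes that attach each amino acid to its transfer RNA. The genes described here are 36 mouse synthetase genes, 20 for cytosolic and 16 for mitochondrial enzymes, among the 50600 genes of the deposited count tables. They were chosen by symbol from a list of names, with no use of measured values, and a symbol ending in 2 marks a mitochondrial enzyme. All 36 were found in the tables.

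The data are RNA-seq counts from 4 libraries of T helper 17 (Th17) cells, a class of helper T cell that secretes interleukin-17. The cells were primary cells of the C57BL/6NJ mouse strain, and the labels link a protocol in which CD4+ T cells are differentiated in culture. The headers of the count tables place the cells at 24 hours, and the labels state no time point. The study has 1 group, with no treatment, knockout or control, so the question for each gene is its level and how far that level varied between libraries. Per the labels the libraries are 4 biological replicates with the same donor entry, with sex not collected and age unknown. They do not say whether the libraries came from separate cultures or animals, so p-values measure only the spread between these libraries.

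Libraries held between 19332509 counts in replicate 2 and 48558772 counts in replicate 4, and 16486 to 18085 genes had a count. Replicates 1 and 2 had 77.8 and 58.9 TPM of the Y-linked gene Ddx3y and 0.916 and 1.01 TPM of Xist, the RNA of the inactive X chromosome. Replicates 3 and 4 had 0.240 and 0.0925 TPM of Ddx3y and 154 and 152 TPM of Xist. The 4 libraries therefore fell into 2 pairs on these genes. Replicates 1 and 2 had the pattern of male cells and replicates 3 and 4 that of female cells. The libraries thus did not all come from 1 animal, although they share a donor entry. The calls that differed within a pair taken alone are named with the spread between libraries. Both T helper markers (Cd3e and Cd4) and all 5 Th17 markers (Il17a, Il17f, Il23r, Ccr6 and Rora) were above 1 TPM. The summed level of the Th17 markers ran from 475 to 664 TPM. Ifng, Il4, Foxp3 and Cd8a, together with 3 B cell, 3 myeloid and 2 erythroid markers, were all below 1 TPM, and none of these lists summed to more than 0.521 TPM in any library. TPM, a measure of relative transcript abundance, is a gene's count divided by its merged exon length, scaled so that the genes of every library sum to the same total. In bulk RNA, fewer cells of a type and less RNA per cell cannot be told apart.

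Protein synthesis in the cytosol and in mitochondria uses largely separate sets of synthetases, all encoded in the nucleus. The enzymes fall into class I and class II by the fold of their catalytic domain. In mammals 8 cytosolic synthetase genes (Eprs, Iars, Lars, Mars, Qars, Rars, Kars and Dars) encode members of the multi-tRNA synthetase complex, which is held together by the scaffold proteins encoded by Aimp1, Aimp2 and Eef1e1. Eprs encodes a fused enzyme for glutamate and proline, Farsa and Farsb encode the subunits of the phenylalanine enzyme, and Gars and Kars each give both the cytosolic and the mitochondrial form of their enzyme. Activated T cells are known for a large rise in protein synthesis as they grow and divide.

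Every synthetase transcript was present in every library, and the cytosolic set was the more abundant. All 36 genes were above 1 TPM in the edgeR quasi-likelihood test with Benjamini-Hochberg adjustment over all 21764 protein-coding genes, of which 45.9% passed. Above 10 TPM were 34 of the 36, against 35.2% of protein-coding genes, with all 20 cytosolic genes and 14 of the 16 mitochondrial genes among them. Above 100 TPM were 19 of the 36, against 9.08% of protein-coding genes. These were 18 of the 20 cytosolic genes and 1 mitochondrial gene, Lars2. The lowest count behind any of these values was 207, for Fars2 in replicate 2.

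The median level of the 20 cytosolic genes was 233 TPM, with a range of 56.1 to 568 TPM. The median of the 16 mitochondrial genes was 31.5 TPM, with a range of 8.86 to 122 TPM. Over all protein-coding genes the median was 0.411 TPM, and over the 10194 with a mean above 1 TPM it was 31.3 TPM. The mitochondrial median thus lay beside that of the transcribed protein-coding genes, and the cytosolic median lay above it. The difference of the cytosolic and mitochondrial medians of log2(TPM + 1) was 2.86 ± 0.07 (SD, n = 4 libraries). Without Gars, Kars and Qars it was 2.81 ± 0.07.

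**Figure D1:**
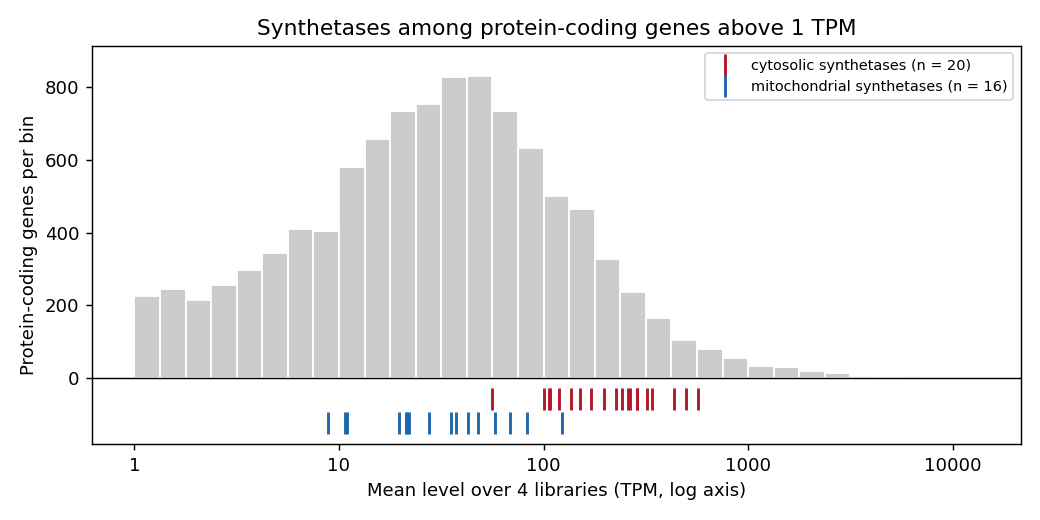
Distribution of mean level (TPM over 4 libraries, log axis) of the 10194 protein-coding genes with a mean above 1 TPM, as genes per bin, with a tick below the axis for each cytosolic (n = 20) and mitochondrial (n = 16) synthetase. The mitochondrial ticks run from 8.86 to 122 TPM across the middle of the distribution, and the cytosolic ticks run from 56.1 to 568 TPM on its upper side.

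Summed over genes, the cytosolic synthetases took 4963, 4856, 4868 and 4774 TPM in replicates 1 to 4. The mitochondrial synthetases took 654, 604, 636 and 654 TPM. Both sums were steady, and replicate 2 had the lowest mitochondrial sum. Together the 36 genes made up 0.543% to 0.562% of all TPM in a library. The cytosolic sum includes Gars and Kars, which also give the mitochondrial form of their enzyme. The ratio of the sums was 7.64 ± 0.301 (SD, n = 4). It was 5.64 ± 0.279 when each gene's count was divided by the length of its principal transcript in place of its merged exons. That alternative, chosen after seeing the data, matters for single genes because merged exons include rarely used ones. The median ratio of merged to principal length was 1.51 for the synthetases. It was 1.28 for protein-coding genes with a mean above 1 TPM and 1.10 for all protein-coding genes.

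Among the cytosolic genes, the class II enzyme for asparagine came first. Nars (ENSMUSG00000024587) had 585, 577, 560 and 551 TPM in replicates 1 to 4, which placed its mean of 568 TPM at rank 243 of 21764 protein-coding genes. Gars (ENSMUSG00000029777, chr6:55038007-55079500, mm10), for glycine, had 500, 500, 503 and 483 TPM. Hars, for histidine, had 440, 418, 438 and 444 TPM. The ranges of these 3 genes over libraries did not overlap each other, nor that of the next gene, Kars, for lysine, at 340 ± 4.97 TPM (SD over 4 libraries, as for all such values that follow).

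The next group of cytosolic genes lay close together. Iars, for isoleucine, had 320 ± 15.1 TPM. Mars, for methionine, had 286 ± 11.5 TPM and Tars, for threonine, 286 ± 9.75 TPM, and each of this pair was the higher in 2 of 4 libraries. Vars, for valine, had 265 ± 12.1 TPM and Rars, for arginine, 258 ± 9.33 TPM. From Kars down to Rars no gene was separated from its neighbour in the order by more than its range over libraries. Below them, Lars (leucine) at 241 ± 6.73, Farsb (phenylalanine, beta subunit) at 226 ± 7.50, Dars (aspartate) at 198 ± 4.15, Sars (serine) at 171 ± 7.69, Wars (tryptophan) at 150 ± 4.23 and Farsa (phenylalanine, alpha subunit) at 137 ± 3.28 TPM were each separated from the next in that series.

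The lowest cytosolic genes reached down into the mitochondrial range. Aars, for alanine, had 119 ± 4.09 TPM, Eprs 107 ± 4.36 TPM and Yars, for tyrosine, 106 ± 3.33 TPM. Qars, for glutamine, had 105, 98.9, 101 and 96.9 TPM and was neither above nor below 100 TPM (edgeR adjusted p = 0.858), but with mitochondrially encoded and ribosomal protein genes taken out of the TPM denominator it was above (edgeR adjusted p = 2.1e-08). Cars, the cysteine enzyme, had 55.9, 59.4, 55.8 and 53.5 TPM. Cars was the only cytosolic gene called below 100 TPM (edgeR adjusted p = 1.8e-23), and its range overlapped that of the mitochondrial gene Iars2.

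Of the mitochondrial genes, Lars2 for leucine (ENSMUSG00000035202, chr9:123366927-123462666) was the highest, with 125, 95.5, 134 and 136 TPM in replicates 1 to 4. Replicate 2 stood below the other 3 libraries. Its mean of 122 ± 18.6 TPM was above 100 TPM in the edgeR test (adjusted p = 1.5e-08) and not in limma on log2(TPM + 1) (adjusted p = 0.069). Rars2 (arginine) had 82.8 ± 1.74, Yars2 (tyrosine) 68.2 ± 3.02 and Iars2 (isoleucine) 57.7 ± 2.79 TPM. Tars2 (threonine) had 47.7 ± 1.13, Aars2 (alanine) 42.8 ± 2.11, Hars2 (histidine) 37.5 ± 0.699 and Sars2 (serine) 35.3 ± 1.52 TPM.

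The remaining 8 mitochondrial genes lay below 30 TPM. Vars2 (valine) had 27.7 ± 0.669 TPM, Cars2 (cysteine) 22.1 ± 0.928 TPM, Fars2 (phenylalanine) 21.4 ± 3.50 TPM, Pars2 (proline) 21.4 ± 1.72 TPM and Mars2 (methionine) 19.6 ± 0.685 TPM. The ranges of Cars2, Fars2, Pars2 and Mars2 overlapped from each to the next. Nars2, for asparagine, had 11.2, 11.5, 10.6 and 10.6 TPM and was above 10 TPM (edgeR adjusted p = 0.014), a call lost without replicate 1 (adjusted p = 0.063) or without replicate 2 (adjusted p = 0.071). Ears2, for glutamate, had 11.2, 10.5, 10.7 and 10.5 TPM and was neither above nor below 10 TPM (edgeR adjusted p = 0.068), and it was called above 10 TPM under 4 alternatives, among them limma (adjusted p = 0.021). Wars2, for tryptophan, had 9.31, 8.34, 8.42 and 9.35 TPM and was the only synthetase called below 10 TPM (edgeR adjusted p = 0.0058). With mitochondrially encoded and ribosomal protein genes taken out of the TPM denominator, Wars2 was neither above nor below it (edgeR adjusted p = 0.76).

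**Figure D2:**
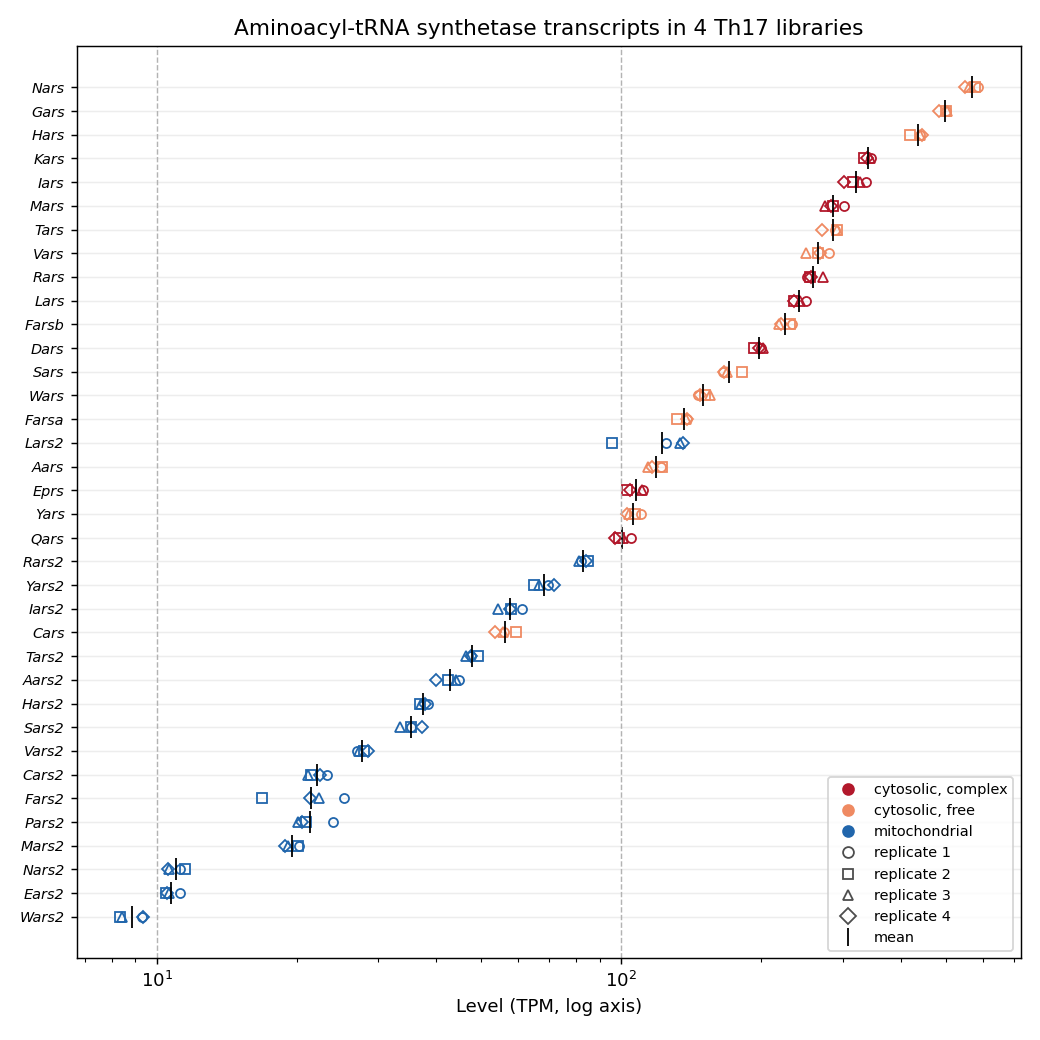
Level of each of the 36 synthetase transcripts (TPM, log axis) in the 4 libraries, ordered by mean, with a symbol for each replicate, a colour for complex, free cytosolic and mitochondrial members, a vertical bar for the mean and dashed lines at 10 and 100 TPM. Of the cytosolic genes only Cars lies clearly below 100 TPM, Lars2 is the only mitochondrial gene with a mean above it, and Wars2 is the only gene with a mean below 10 TPM.

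From Nars to Wars2 the means spanned 64.2-fold. Of the 35 pairs of neighbours in this order, 20 had ranges over libraries that did not overlap and 15 had ranges that did. The order depends on the length used. With principal transcript length, 8 genes (Kars, Farsa, Lars2, Eprs, Qars, Tars2, Cars2 and Ears2) came out over 1.5 times higher and 2 (Nars and Tars) over 1.5 times lower. Kars, at 521 ± 7.63 TPM, then came first, ahead of Gars at 449 ± 8.32 TPM and Nars at 376 ± 10.1 TPM. Lars2 then had 241 ± 36.6 TPM, Eprs 273 ± 11.1 TPM and Qars 163 ± 5.31 TPM, the last of these then above 100 TPM (edgeR adjusted p = 1.8e-28). The 2 orders had a rank correlation of 0.92 across the 36 genes, which share their counts.

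Where both compartments have a synthetase gene for an amino acid, the cytosolic transcript was the higher of the pair in all 4 libraries. This held for 17 of 17 pairs on the log2(TPM + 1) scale, counting Farsa and Farsb each against Fars2 and Eprs against both Ears2 and Pars2. For asparagine, Nars minus Nars2 was 5.58, 5.53, 5.59 and 5.57 in replicates 1 to 4, a mean of 5.57 ± 0.03 and a ratio of means of 51.7. Tryptophan (Wars minus Wars2) followed with 3.94 ± 0.12, methionine (Mars minus Mars2) with 3.80 ± 0.04 and histidine (Hars minus Hars2) with 3.50 ± 0.03. With 4 libraries the exact two-sided sign-flip test cannot give a p below 0.125, and all 17 pairs had that value, also after Benjamini-Hochberg adjustment.

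The gap was narrowest for tyrosine, leucine and cysteine. Yars minus Yars2 was 0.66, 0.71, 0.63 and 0.52, a mean of 0.63 ± 0.08. Lars minus Lars2 was 1.00, 1.29, 0.85 and 0.79, a mean of 0.98 ± 0.22, and it was widest in replicate 2, where Lars2 was lowest. With principal transcript length Lars minus Lars2 turned to -0.56 ± 0.23, so the direction of the leucine pair depends on the length taken for Lars2. Cars minus Cars2 was 1.31 ± 0.10 with merged exon length and 0.44 ± 0.10 with principal length. For threonine, Tars minus Tars2 moved from 2.56 ± 0.06 to 0.44 ± 0.06. The other 16 pairs kept the cytosolic gene higher under the principal length.

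**Figure D3:**
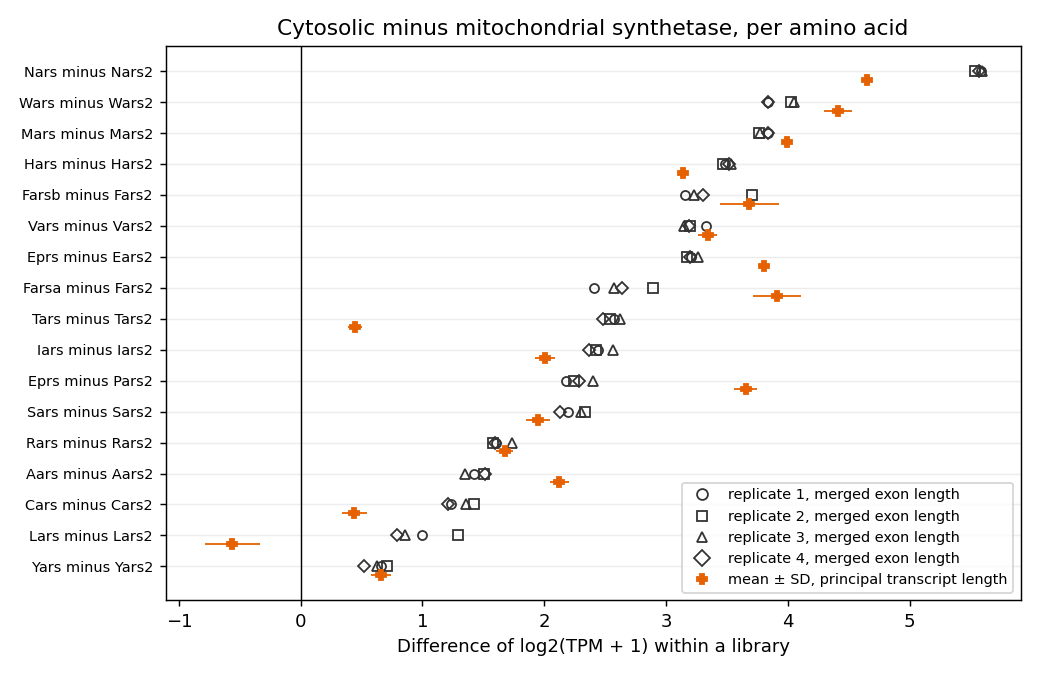
Difference of log2(TPM + 1) between the cytosolic and the mitochondrial synthetase of each pair, within each library (open symbols) and as mean ± SD with principal transcript length (filled crosses), with a line at 0. All open symbols lie to the right of 0, from 0.52 for tyrosine in replicate 4 to 5.59 for asparagine in replicate 3, and only the cross for leucine, at -0.56, lies to its left.

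Levels of the pairs did not run in parallel: across 13 amino acids with a single gene in each compartment, the cytosolic and mitochondrial levels had a Pearson r of -0.03 and a Spearman rho of -0.11. Asparagine had the highest cytosolic transcript, Nars, and a mitochondrial transcript, Nars2, that was above only Wars2 among these 13. The amino acids are not replicates, so these values describe the pattern and carry no test.

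The subunits of the phenylalanine enzyme were compared because the cytosolic form joins both in a complex. Farsa had 138, 132, 138 and 139 TPM and Farsb had 233, 231, 218 and 220 TPM in replicates 1 to 4, so the groups of values did not overlap. Farsa minus Farsb was -0.72 ± 0.07 on the log2(TPM + 1) scale, negative in 4 of 4 libraries (exact two-sided sign-flip p = 0.125). With principal transcript length it was 0.23 ± 0.07, the opposite sign, so these data give no fixed order of the subunits.

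The 8 synthetase genes of the multi-tRNA synthetase complex had a median of 250 TPM, and the 12 free cytosolic genes 198 TPM. The difference of their median log2(TPM + 1) was 0.34 ± 0.07, but the difference of means was 0.06 ± 0.03. The genes at the top and at the foot of the cytosolic order, Nars, Gars, Hars and Cars, are all free with merged exon length, but with principal transcript length Kars, a complex member, came first. Within the complex, levels ran from Qars at 0.402 of the complex median to Kars at 1.36 times it. The scaffold genes spread more widely. Aimp1 had 57.2 ± 1.31 TPM, 0.229 of the complex median, Aimp2 197 ± 14.8 TPM and Eef1e1 649 ± 12.8 TPM. With principal transcript length they drew together at 196, 190 and 181 TPM. By class, the 9 cytosolic class I genes had a median of 241 TPM and the 10 class II genes 256 TPM, with Eprs, which holds domains of both, left out. With principal transcript length these medians were 196 and 254 TPM.

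Between libraries the synthetases varied little. The median ratio of highest to lowest library was 1.08, and 34 of the 36 genes stayed under 1.2, with Lars2 at 1.42 and Fars2 at 1.50 as the exceptions. The median SD of log2 CPM (counts scaled to library size with TMM factors) was 0.0452 over the 36 genes, 0.0405 for the cytosolic and 0.0534 for the mitochondrial ones, against 0.0813 over the 12849 genes whose mean count was 10 or more. That background includes genes with far lower counts, so the test below sets each gene against genes of like abundance. Hars2, with an SD of 0.0149, was the steadiest.

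Of the synthetases, only Lars2 varied more than genes of like abundance, by the deviance of its counts under a negative binomial model with edgeR's trended dispersion (adjusted p = 0.040), where 0.366% of the genes tested were called. The call rests on replicate 2: without it the edgeR deviance test gave Lars2 an adjusted p of 1.00, without replicate 3 it gave 0.18 and without replicate 4 it gave 0.31, while without replicate 1 it gave 0.0013. With the test limited to genes whose mean count was 100 or more, its adjusted p was 0.093. Replicate 2 was also the shallowest library, and 4 of the 5 Th17 markers (Il17a, Il17f, Il23r and Ccr6) were lowest in it. Il17f, the most abundant of them, had 557, 391, 501 and 521 TPM and was called as varying in the same edgeR deviance test (adjusted p = 0.047). Neither depth nor the Th17 markers were tested for a part in the Lars2 difference. Fars2 had 25.3, 16.8, 22.3 and 21.4 TPM, again lowest in replicate 2 and highest in replicate 1, and its adjusted p in the edgeR deviance test was 0.99 (unadjusted 0.044). Its counts of 654, 207, 494 and 661 were among the smallest of the set.

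**Figure D4:**
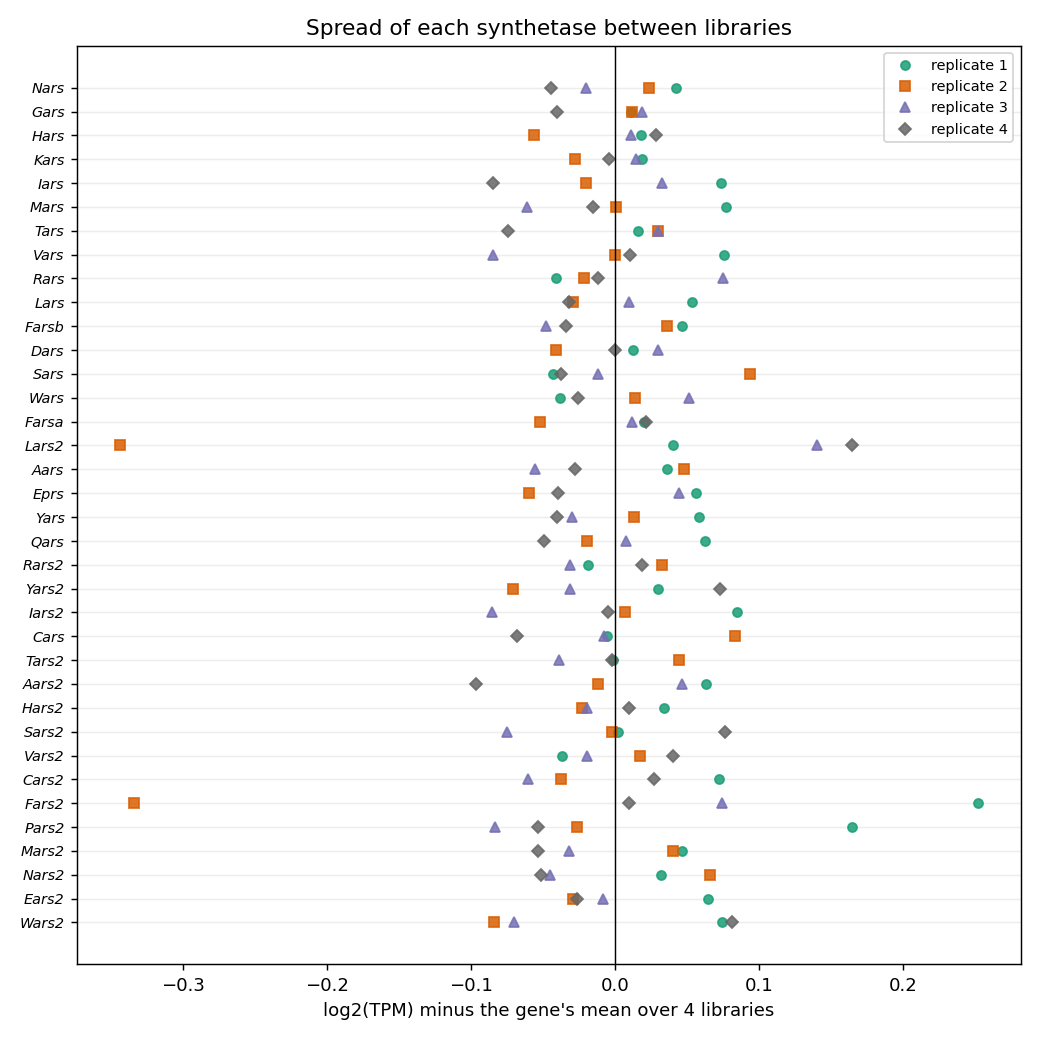
Deviation of log2(TPM) from the gene's own mean over 4 libraries, for each synthetase in order of level, with a colour and symbol for each replicate. Most points lie within 0.1 of 0, and replicate 2 lies farthest to the left for Lars2 and Fars2.

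Replicate 1 was the highest library for 18 of the 36 genes and the lowest for 4. Replicate 2 was the lowest for 11, replicate 3 for 10 and replicate 4 for 11. How often each replicate was the highest or lowest over all genes was not counted, so these numbers describe the 36 genes alone. Between the pairs of libraries that differ in Xist and Ddx3y, the median difference of compartments was 2.89 ± 0.05 in replicates 1 and 2 and 2.83 ± 0.08 in replicates 3 and 4. The calls changed for 2 genes in replicates 3 and 4 alone: Nars2 was no longer above 10 TPM (edgeR adjusted p = 0.21) and Yars no longer above 100 TPM (edgeR adjusted p = 0.20).

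The promoters of the synthetases were searched for TGATGNAAN on both strands. This is the core of the C/EBP-ATF response element, through which ATF4, the transcription factor of the amino acid response, is known to act on several synthetase genes. The RefSeq table (build GRCm38.p6) held a window for 26 of the 36 genes, from 250 bases before to 50 bases after the gene's start. The motif was present in 5 of the 12 cytosolic windows (Aars, Gars, Iars, Tars and Yars) and in 0 of the 14 mitochondrial windows. Over all 27025 genes with a window, 4.50% held it. The sites are shown because the count for the cytosolic windows rests on them, and the difference between the compartments was not tested. Each is given 5′ to 3′ on the strand that reads TGATGNAAN, with the 9 matched bases in capitals between 10 bases of context on each side.
Gars (chr6:55037960-55037988): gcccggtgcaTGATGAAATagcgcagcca
Iars (chr13:49682126-49682154): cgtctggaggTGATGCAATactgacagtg
Tars (chr15:11399656-11399684): gctaaccagcTGATGCAACgggactcctg
Yars (chr4:129189896-129189924): cgagctcagcTGATGCAACccgacgggac
Aars (chr8:111033840-111033868): cagagcgctcTGATGAAAAgtgacccgct

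Counting the annotated start as position 0, the sites listed lay at -31 to -23 for Gars, 6 to 14 for Iars, -16 to -8 for Tars, 3 to 11 for Yars and 8 to 16 for Aars. The Yars site reads in the direction of the gene, and the others listed read on the opposite strand. With merged exon length, the 5 cytosolic genes with the motif had levels from 106 to 496 TPM with a median of 286 TPM. The 7 cytosolic genes with a window but no motif had 100.3 to 340 TPM with a median of 171 TPM. The ranges overlapped. With principal transcript length, Tars, Aars, Yars, Iars and Gars had 130, 132, 149, 263 and 449 TPM. Of the genes without the motif, Qars, Sars and Kars then had 163, 170 and 521 TPM. The higher median of the genes with the motif was not kept with that length. A match is only a match of letters, and factor binding was not measured.

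The genes of the amino acid response gave a mixed picture beside the synthetases. Of 11 genes for uncharged tRNA sensing and the ATF4 response, 10 were above 1 TPM and 8 above 10 TPM in the edgeR test. The shares of all protein-coding genes were 45.9% and 35.2%. Atf4 itself had 1120, 1169, 1091 and 1115 TPM, a level above every synthetase. Psat1 and Phgdh, of serine synthesis, had 311 ± 7.58 and 257 ± 9.48 TPM, and Ddit4 and Sesn2, inhibitors of mTORC1 signalling, 278 ± 21.7 and 151 ± 7.14 TPM. Asns, asparagine synthetase, had 24.4 ± 2.19 TPM, so the transcript for charging asparagine (Nars) stood far above the transcript for making it. The stress genes Ddit3, Trib3 and Chac1 were low, at 9.93 ± 2.61, 3.64 ± 0.293 and 0.847 ± 0.443 TPM, and Chac1 was neither above nor below 1 TPM (edgeR adjusted p = 0.24). The uncharged tRNA sensor kinase gene Eif2ak4 had 18.1 ± 0.835 TPM and its activator Gcn1l1 59.3 ± 2.57 TPM. In this list the same motif was found for Asns, Trib3 and Chac1, in 3 of the 10 genes with a window.
Asns (chr6:7693214-7693242): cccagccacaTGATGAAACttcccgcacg
Trib3 (chr2:152344029-152344057): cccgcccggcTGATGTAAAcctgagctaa
Chac1 (chr2:119351038-119351066): ctggcaggagTGATGCAACggcagggaag

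All 3 of these genes lay at or below the 24.4 TPM of Asns, so in this list the genes that hold the motif were not the more abundant ones.

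Genes that act beside the synthetases were nearly all transcribed. There were 44 such genes in lists for scaffolds, editing, tRNA maturation, modification, delivery and sensing. With merged exon length, 43 of them were above 1 TPM, 39 above 10 TPM and 14 above 100 TPM. The shares of all protein-coding genes were 45.9%, 35.2% and 9.08%. These lists were chosen with earlier results of these data known. Mitochondria lack a glutamine enzyme of their own and make glutaminyl-tRNA through an amidotransferase, whose 3 subunit genes Gatb, Gatc and Qrsl1 had 20.2 ± 1.43, 60.0 ± 0.586 and 24.5 ± 2.07 TPM. Each was higher than Ears2, which supplies the substrate, at 10.7 ± 0.331 TPM, but with principal transcript length Gatb, at 17.3 TPM, was below Ears2, at 18.6 TPM. Mtfmt, which formylates the methionyl-tRNA that starts mitochondrial translation, had 26.6 ± 0.896 TPM, beside 19.6 TPM for Mars2. Tarsl2, a paralog of Tars, had 11.8 ± 0.724 TPM.

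With merged exon length, all 10 genes of tRNA maturation and export were above 10 TPM, and 4 of them were above 100 TPM. They ran from Elac1, a tRNA 3′ processing enzyme, at 11.9 ± 0.158 TPM to Rtcb, the tRNA ligase, at 376 ± 8.71 TPM. With principal transcript length Elac1 had 8.20 TPM, so its place above 10 TPM depends on the length. Among all protein-coding genes, 35.2% were above 10 TPM and 9.08% above 100 TPM. Of 7 mitochondrial tRNA modification genes all were above 10 TPM, from Nsun3 at 15.4 ± 0.525 TPM to the pseudouridine synthase gene Pus1 at 174 ± 2.13 TPM. Of 6 genes for trans-editing and selenocysteine, 4 were above 10 TPM with merged exon length. Dtd1, a deacylase of D-aminoacyl-tRNA, was highest at 61.3 ± 2.69 TPM. Aarsd1, an editing enzyme for mischarged alanine tRNA, was lowest at 4.13 ± 0.405 TPM. Pstk, of the same list, had 5.83 ± 0.392 TPM, but 28.1 TPM with principal transcript length. For delivery of charged tRNA to the ribosome, Eef1a1, the cytosolic factor and the most abundant transcript of these lists, had 9129 ± 283 TPM and Tufm, the mitochondrial factor, 223 ± 3.71 TPM. Multi-mapping reads were not counted, and 39.4% of the 50-base words of Eef1a1 and 54.5% of those of Tufm occur in other genes on the same strand. The share was 47.8% for Phgdh and 39.1% for Aarsd1, so the levels of these 4 genes may be too low by an unknown amount, and the place of Aarsd1 as the lowest of its list is uncertain. Among the synthetases this share was 13.5% for Aars (with Exosc6) and 7.15% for Iars (with Gm4849), and under 5% for the other 34.

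Synthetase levels were set beside codon usage. The share of each amino acid among codons was computed from GENCODE M21 coding sequences, weighted by TPM, for nuclear genes and for the 13 mitochondrially encoded mRNAs. Leucine was the most frequent amino acid in both, with 9.31% of nuclear and 14.6% of mitochondrial codons. Across 17 amino acids the cytosolic level and the codon share had a Pearson r of 0.21 and a Spearman rho of 0.10. The 3 most abundant transcripts, Nars, Gars and Hars, serve asparagine, glycine and histidine, with 3.56%, 6.73% and 2.33% of nuclear codons. With principal transcript length Kars came first, and lysine made up 6.88% of nuclear codons. Aars and Sars, for the more frequent alanine (7.39%) and serine (7.47%), lay lower.

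Across the 16 mitochondrial genes the level and the share of mitochondrial codons had an r of 0.48 and a rho of 0.36, and without Lars2 an r of 0.22 and a rho of 0.22. Lars2 had both the highest level and the highest codon share. With merged exon length Rars2 was the next in level, and it serves arginine, which made up 1.67% of mitochondrial codons. With principal transcript length the next was Tars2, at 95.1 TPM, for threonine, with 7.91% of mitochondrial codons. Over the 16 genes r was then 0.39 and rho 0.25. The points share their libraries and the correlations are descriptions.

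**Figure D5:**
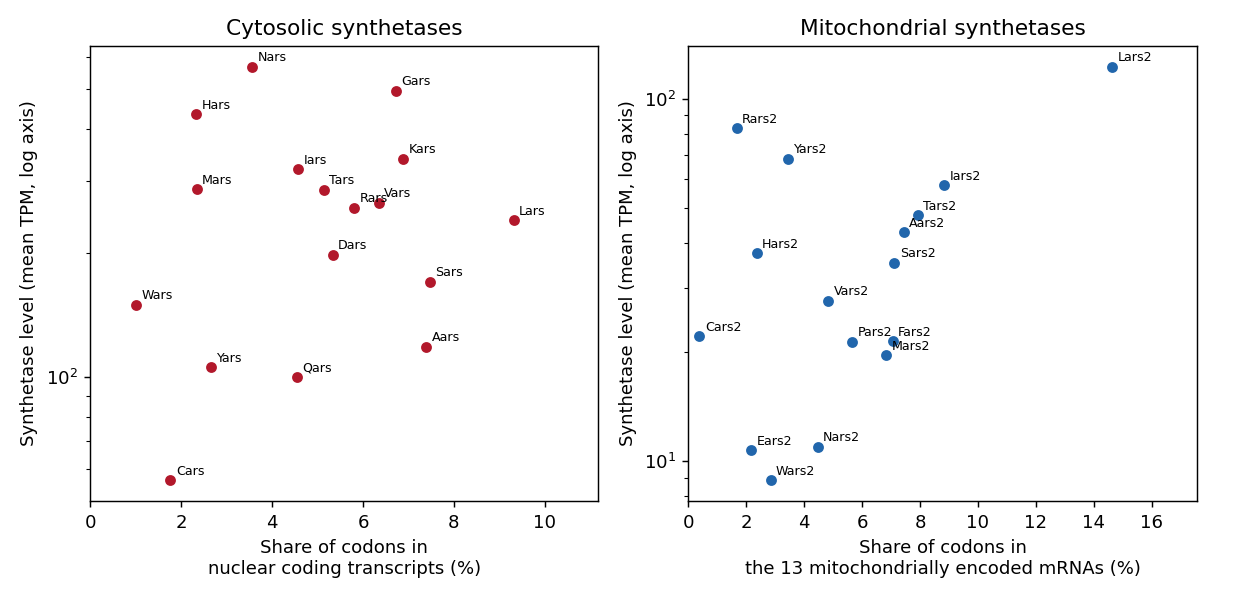
Mean level of each synthetase (TPM, log axis) against the TPM-weighted share of its amino acid among codons (percent), for 17 cytosolic genes and nuclear coding transcripts (left) and 16 mitochondrial genes and the 13 mitochondrially encoded mRNAs (right). The cytosolic points show no clear slope (r = 0.21), and Lars2, at 14.6% of codons, stands apart at the upper right of the mitochondrial points (r = 0.48 with it and 0.22 without it).

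Several synthetase genes start close to a gene on the opposite strand. Of the 36 genes, 9 (25%) had a protein-coding gene on the other strand whose 5′ end lay within 1000 bases, against 10.6% of all protein-coding genes and 18.1% of those with a mean above 1 TPM. The cytosolic gene Hars and the mitochondrial gene Hars2 form such a pair, with annotated starts 197 bases apart. Their levels differed, at 435 TPM for Hars and 37.5 TPM for Hars2. Sars2 lay beside Mrps12, a mitochondrial ribosomal protein gene, with starts 172 bases apart and levels of 35.3 and 175 TPM. Rars2 and Orc3, a subunit of the origin recognition complex, had starts 13 bases apart and levels of 82.8 and 68.6 TPM. The other such partners were Terf2ip for Kars, Wdr25 for Wars, S100pbp for Yars, Ubfd1 for Ears2 and Lyrm4 for Fars2. The synthetase was the higher of the pair for Kars, Wars, Yars and Rars2 and the lower for Sars2, Ears2 and Fars2. The pair of Hars and Hars2 holds only synthetases and is left out of that comparison. No rule on which partner was higher was tested.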

How the data were processed

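Per the labels, the assay was total RNA-seq, while the linked library protocol names poly(A) selection. Per the file headers, the authors counted read pairs per gene over the exons of GENCODE M13 (mm10) with featureCounts 1.4.6-p4, reverse-stranded, with both ends mapped and multi-mapping reads left out. The deposited counts are whole numbers, from 19332509 to 48558772 per library, and the deposited exon length is in bases. An aligner version is not given in those sources.

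Membership uses no measured value, but the gene set and the other lists were chosen with earlier results of these data known. Symbols came from GENCODE M21 by Ensembl ID for 50376 of 50600 genes. Levels were tested against 1, 10 and 100 TPM with edgeR 4.0.16 (quasi-likelihood, R 4.3.3), and variation by negative binomial deviance with TMM scaling. DESeq2 1.42.0 and limma 3.58.1 were alternatives. The threshold was an adjusted p of 0.05, and the pseudocount was 1. A floor of 3 counts in 1 kb equals 0.206 to 0.518 TPM, for counting error only. Tests were checked on simulated data. All 36 members are named, and of longer lists the highest and lowest. Protein features were not used here, and codons came from M21 coding sequences. A further motif match is not reported here.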

Additional observations from a re-analysis of the deposited data

Results flagged for a closer look

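In 3 cytosolic synthetases, 1 library lay far from the other 3 relative to the gene's whole range. For Gars, replicate 4 was low, with a gap of 0.870 of the range, at 483 TPM against 500 to 503 TPM. For Tars, replicate 4 was low, with a gap of 0.864, at 271 TPM against 289 to 291 TPM. For Farsa, replicate 2 was low, with a gap of 0.864, at 132 TPM against 138 to 139 TPM. All 3 gaps are above Dixon's 95% critical value for 4 samples, which chance passes in about 1 in 20 genes. The highest library exceeded the lowest by a ratio of only 1.04 for Gars, 1.07 for Tars and 1.05 for Farsa.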

How the results depend on the processing

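Of 217 values recomputed under alternatives, 198 stayed within the limits set for them. The limits were the same side of the threshold for the Lars2 p, 1.5 times for counts and 1 SD for untested values. For differences of gene pairs the limit was the sign alone, because no pair can pass the threshold with 4 libraries. A change of size alone, as for Tars minus Tars2 from 2.56 to 0.44 with principal transcript length, therefore counted as staying. Of the rest, 7 moved further without changing sign, 8 no longer passed the threshold and 4 changed sign. Those 8 all concern the Lars2 variation call, held both as its adjusted p and as the number of genes varying. No paired analysis was possible because the study has only 1 group. Leaving out each replicate in turn gave 36 genes above 1 TPM, 33 to 34 above 10 TPM and 19 above 100 TPM, compartment differences of 2.84 to 2.89, complex differences of 0.32 to 0.37, ratios of summed TPM of 7.51 to 7.76, and 0 to 1 genes called as varying. The adjusted p of Lars2 in the edgeR deviance test then ran from 0.0013 to 1.00. When only genes with a mean count of 100 or more were tested, 0 synthetases varied (edgeR deviance, Lars2 adjusted p = 0.093). In the main edgeR deviance test 2 of the 36 had an unadjusted p under 0.05, Lars2 and Fars2. The share of all genes under that value was not counted, and the adjusted p of Fars2 in that edgeR deviance test was 0.99. With means in place of medians the compartment difference was 2.71 and the complex difference 0.057. Without division by length (log2(CPM + 1) or summed CPM) the compartment difference was 2.47, the complex difference 0.25, the summed ratio 5.22, Lars minus Lars2 -0.53 and Farsa minus Farsb 0.069. With principal transcript length, an alternative chosen after seeing the data, the complex difference was 0.42, the summed ratio 5.64, Lars minus Lars2 -0.56 and Farsa minus Farsb 0.23. These last shifts follow from the lengths, which are the only thing changed. The shallowest library limits Fars2 most, at 207 counts.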
